A study of Mus musculus with 15 samples.

Results

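The integrated stress response and its mitochondrial branch were followed in mouse skeletal muscle through 10 transcripts chosen by gene symbol: the transcription factors Atf4, Atf5 and Ddit3, the biosynthetic enzymes Asns, Psat1, Phgdh and Mthfd2, the pseudokinase Trib3, and the secreted factors Fgf21 and Gdf15. All 10 were found among the 39179 genes listed for each mouse. The study sequenced quadriceps muscle RNA from 15 C57BL/6 mice, either wild type for the mitochondrial ribosomal protein gene Mrps5 or homozygous for the V338Y exchange (Mrps5 V338Y/V338Y), an amino acid replacement that lowers the accuracy of translation in mitochondria. At 3 mo there were 4 wild-type and 4 V338Y mice, and at 19 mo there were 3 wild-type and 4 V338Y mice, with no treatment in any group. The V338Y allele was carried in every tissue, so all cells in the muscle sample held it. The question was whether mitochondrial mistranslation raises these transcripts.

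When a cell meets stress, including stress that starts in its mitochondria, kinases phosphorylate the initiation factor eIF2, general translation slows, and the mRNA of ATF4 is translated more. ATF4 then switches on genes for amino acid synthesis and transport, together with the factors ATF5 and CHOP (encoded by Ddit3). In mouse muscle with failing mitochondria this response is known for the secretion of FGF21 and GDF15, often called mitokines, and for induction of the serine and one-carbon enzymes. Because ATF4 is set largely by translation, its mRNA is not a direct measure of its protein.

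ATF4 and its partners of the C/EBP family bind a composite DNA element, searched here as TGATGNAA and, on the other strand, TTNCATCA. The promoters that held it are shown because they mark which of the 10 genes carry this element close to the start of transcription. In RefSeq promoter windows of 300 bases (250 before to 50 after the start, GRCm38.p6), 3 of the 10 genes held a match, given in capitals in the lines that follow, 5′ to 3′ on the strand of the gene. The first is the promoter of Asns (chr6:7693160-7693459, minus strand), the second that of Fgf21 (chr7:45615441-45615740, minus strand) and the third that of Trib3 (chr2:152344011-152344310, minus strand).
Asns: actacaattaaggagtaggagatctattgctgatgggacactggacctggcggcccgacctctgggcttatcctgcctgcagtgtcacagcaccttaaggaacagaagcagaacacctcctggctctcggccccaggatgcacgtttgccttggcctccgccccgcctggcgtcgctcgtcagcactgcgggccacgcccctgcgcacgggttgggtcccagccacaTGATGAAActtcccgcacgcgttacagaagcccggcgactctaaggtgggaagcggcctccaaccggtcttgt
Fgf21: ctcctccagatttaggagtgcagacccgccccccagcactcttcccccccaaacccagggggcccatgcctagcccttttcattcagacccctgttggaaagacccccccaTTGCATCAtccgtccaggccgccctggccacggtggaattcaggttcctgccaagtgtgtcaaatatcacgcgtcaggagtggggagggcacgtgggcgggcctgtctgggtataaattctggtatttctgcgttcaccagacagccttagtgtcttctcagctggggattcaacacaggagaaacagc
Trib3: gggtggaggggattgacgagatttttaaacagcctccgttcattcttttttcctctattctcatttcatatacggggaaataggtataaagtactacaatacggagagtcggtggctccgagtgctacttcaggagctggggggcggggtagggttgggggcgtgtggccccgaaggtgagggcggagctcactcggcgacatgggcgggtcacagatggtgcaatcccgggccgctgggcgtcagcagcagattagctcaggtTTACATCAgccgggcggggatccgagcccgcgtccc

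Counted from 1 at the first base of the transcript, the match in Asns began at position -23, the match in Fgf21 at position -139 and the match in Trib3 at position 15. The windows of Atf4, Atf5, Ddit3, Gdf15, Psat1, Phgdh and Mthfd2 held no match to these letters. Among all genes with a RefSeq window, 4.51% (1219 of 27025) held at least 1 match. A match describes the sequence, not binding.

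Library totals ranged from 8250653 to 18968132 counts, and levels are given as CPM, counts scaled to library size with TMM factors over all 15 mice. Mrps5 itself had a mean of 23.6 CPM (SD 1.83, n = 4) in wild-type mice at 3 mo, against 25.7 CPM (SD 1.503, n = 4) in V338Y. At 19 mo the means were 17.6 CPM (SD 1.79, n = 3) for wild type and 17.4 CPM (SD 1.63, n = 4) for V338Y. A single amino acid exchange leaves the transcript in place, so this level does not check the genotype labels. The study's methods describe the 3 mo mice as female. All 8 libraries labelled 3 mo, however, held Y-linked Ddx3y at 162.9 to 202.3 CPM with Xist at no more than 0.574 CPM, while all 7 libraries labelled 19 mo held Xist at 505.8 to 630.8 CPM with Ddx3y at no more than 0.0826 CPM. Age and sex therefore cannot be told apart in any comparison of 19 mo with 3 mo, whereas the comparisons of genotype at one age are within one sex. The myofibre markers (Ckm, Acta1, myosin heavy chains and others) were all detected and summed to 74700 to 154000 CPM across the mice. At 19 mo the libraries also differed in transcripts of other cell types, most of all V338Y mouse 5, in which 8 neutrophil markers summed to 588.8 CPM against 2.88 to 27.1 CPM in the other 6.

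The 10 genes covered a wide range of levels. Per kilobase of exon, the median over the 15 mice was 64.3 CPM for Atf4, which stood at percentile 96.8 of the genes kept, 9.11 CPM for Atf5 and 3.94 CPM for Ddit3. Asns (1.22 CPM per kilobase), Mthfd2 (0.912), Phgdh (0.878), Psat1 (0.551) and Trib3 (0.351) were low, and the neighbours Asns, Mthfd2 and Phgdh overlapped in their ranges over mice. Fgf21 (0.0697) and Gdf15 (0) were at the limit of detection. Counts per mouse ran from 799 to 2886 for Atf4, from 9 to 72 for Phgdh, from 2 to 27 for Trib3, and from 0 to 4 and 0 to 2 for Fgf21 and Gdf15. The 8 genes other than Fgf21 and Gdf15 passed the filter on low counts in each comparison.

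**Figure D1:**
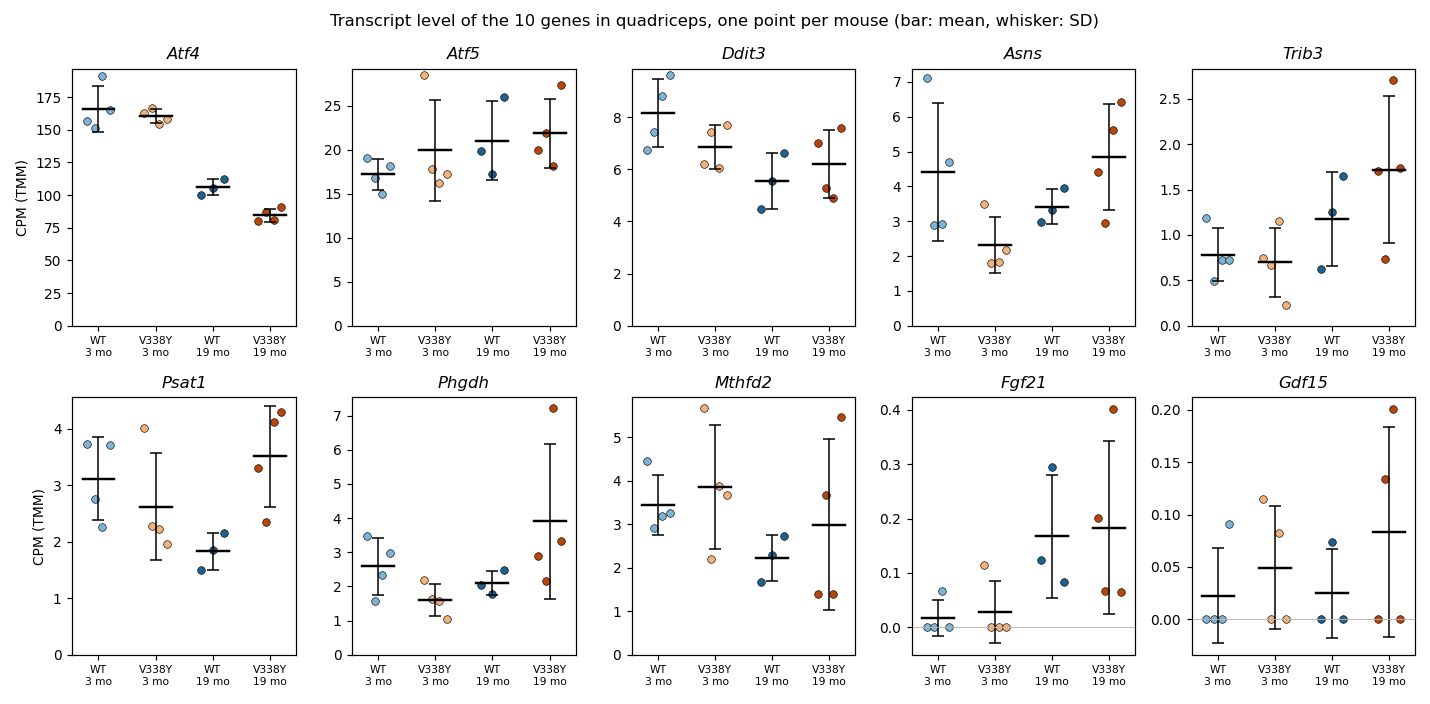
CPM (y axis, linear) of each of the 10 genes in each mouse by genotype and age (x axis), with the group mean as a bar and the SD as a whisker (n = 4, 4, 3 and 4). Atf4 stood apart by age, from 151.5 CPM upward at 3 mo and no higher than 112.7 CPM at 19 mo, and Psat1 was the member whose 19 mo groups separated upward in V338Y (2.35 to 4.30 CPM against 1.49 to 2.15 CPM).

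At 3 mo no member was called higher or lower in V338Y muscle. Of the 8 genes tested, 0 passed an adjusted p of 0.05 (edgeR quasi-likelihood test), where 0.075% of all 13333 genes did, and 6 of the 8 had a lower fitted level in V338Y. Their median log2 fold change was -0.14, beside -0.0025 over all genes tested, and it was -0.0801 without wild-type mouse 1, -0.25 without wild-type mouse 2 and -0.0632 without V338Y mouse 4. At an unadjusted p under 0.05 there was 1 member, Asns, which was lower, and 9.7% of all genes tested passed that level. None of the 8 had groups that did not overlap, against 4.71% of all genes tested.

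At 19 mo the same genes leaned the other way, again without a call. Of the 8 genes, 0 passed the adjusted threshold, where 0.0434% of 13833 genes did, and 7 had a higher fitted level in V338Y, with Atf4 the exception. The median log2 fold change was 0.51, beside 0.0080 over all genes tested, and it was 0.28 without wild-type mouse 2 and 0.22 without V338Y mouse 5. Unadjusted p was under 0.05 for 2 members, Atf4 (lower) and Psat1 (higher), against 8.92% of all genes tested, and these were also the 2 whose groups did not overlap, against 9.78% of all genes. With the mouse number as a block, an alternative whose check is described with the processing, 0.795% of all genes tested passed the adjusted threshold (110 genes in place of 6). Still 0 of the 8 members did. V338Y mouse 3 had no wild-type mouse of its number at 19 mo, so this block gave it no weight in the genotype fold changes.

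Atf4, the central transcription factor of the response (GRCm38 chr15:80255184-80257541, plus strand), was similar in the genotypes at 3 mo. Wild-type mice 1 to 4 had 156.8, 151.5, 191.3 and 165.2 CPM, and V338Y mice 1 to 4 had 163.2, 166.9, 154.7 and 158.6 CPM. The V338Y values all lay inside the wild-type range, and the log2 fold change was -0.04 (SE 0.08, 95% interval -0.22 to 0.13, adjusted p = 0.90). At 19 mo, wild-type mice 2, 4 and 5 had 99.99, 105.7 and 112.7 CPM, and V338Y mice 2, 3, 4 and 5 had 79.97, 87.03, 81.03 and 90.62 CPM. Every aged V338Y mouse was thus below every aged wild-type mouse, the opposite direction to a raised response, with a log2 fold change of -0.30 (SE 0.10, 95% interval -0.53 to -0.07) that did not survive adjustment (adjusted p = 0.534).

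Atf5, a related factor that serves the mitochondrial unfolded protein response (chr7:44812256-44816658, minus strand), overlapped between genotypes at each age. At 3 mo it was at 19.0, 16.8, 14.98 and 18.1 CPM in wild-type and 28.5, 17.8, 16.2 and 17.3 CPM in V338Y mice, so 1 V338Y mouse stood above the rest. At 19 mo it was at 19.9, 17.3 and 26.0 CPM in wild-type and 20.02, 22.0, 18.2 and 27.4 CPM in V338Y mice. The log2 fold changes were 0.23 (95% interval -0.14 to 0.61) and 0.08 (95% interval -0.33 to 0.50). Exons of Atf5 overlap those of Il4i1 and Nup62 on the opposite strand, and the strand setting of the counting is not given in the sources used here.

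Ddit3, which encodes the stress factor CHOP (chr10:127290774-127296288, plus strand), was at 6.74 to 9.60 CPM in wild-type and 6.03 to 7.72 CPM in V338Y mice at 3 mo. At 19 mo it was at 4.47, 5.55 and 6.61 CPM in wild-type and 7.01, 5.29, 4.91 and 7.58 CPM in V338Y mice. The groups overlapped at each age, with log2 fold changes of -0.26 (95% interval -0.58 to 0.06) and 0.19 (95% interval -0.30 to 0.69). Its exons overlap Mars, a more abundant gene on the opposite strand, so its counts are uncertain to the extent that reads were assigned without strand.

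Asns, the asparagine synthetase whose promoter carries the element shown above (chr6:7675169-7693254, minus strand), was the member with the largest fitted difference at 3 mo. Wild-type mice 1 to 4 had 7.11, 2.91, 2.92 and 4.71 CPM, and V338Y mice 1 to 4 had 3.50, 1.81, 1.82 and 2.19 CPM. In V338Y, 3 of the 4 mice lay below all wild-type mice while mouse 1 overlapped them, and the log2 fold change was -0.86 (SE 0.33, 95% interval -1.596 to -0.13, adjusted p = 0.462). At 19 mo, wild-type mice had 2.98, 3.33 and 3.97 CPM, and V338Y mice 2 to 5 had 4.404, 2.95, 5.62 and 6.42 CPM. Here 3 of the 4 V338Y mice were above all wild-type mice and mouse 3 was below them, with a log2 fold change of 0.53 (SE 0.29, 95% interval -0.12 to 1.18, adjusted p = 0.597).

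Psat1, phosphoserine aminotransferase of the serine pathway (chr19:15904678-15947337, minus strand), gave the clearest separation upward in aged V338Y muscle. At 19 mo it was at 1.49, 1.85 and 2.15 CPM in wild-type mice 2, 4 and 5, and at 3.30, 2.35, 4.11 and 4.30 CPM in V338Y mice 2 to 5. The groups did not overlap, and the log2 fold change was 0.97 (SE 0.28, 95% interval 0.32 to 1.62), yet the adjusted p was 0.525. With the mouse number as a block the adjusted p was 0.0800, in a fit that gave no weight to V338Y mouse 3, the lowest of its group. At 3 mo the genotypes overlapped, with 3.74, 2.77, 2.25 and 3.71 CPM in wild-type and 4.02, 2.29, 2.23 and 1.96 CPM in V338Y mice, and a log2 fold change of -0.19 (95% interval -0.78 to 0.40).

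Phgdh, the dehydrogenase that opens the serine pathway (chr3:98313170-98339990, minus strand), was at 3.46, 1.56, 2.32 and 2.99 CPM in wild-type and 2.18, 1.62, 1.57 and 1.04 CPM in V338Y mice at 3 mo. At 19 mo it was at 2.05, 1.77 and 2.48 CPM in wild-type and 2.90, 2.14, 7.22 and 3.34 CPM in V338Y mice. V338Y mouse 4 stood far above the rest. The log2 fold change was 0.91 (95% interval -0.06 to 1.88, adjusted p = 0.565), and without mouse 4 it was 0.43. Mthfd2, the mitochondrial one-carbon enzyme that is usually among the first to rise when mitochondria fail (chr6:83305691-83325908, minus strand), was at 1.68, 2.29 and 2.73 CPM in aged wild-type and 1.40, 3.69, 1.40 and 5.46 CPM in aged V338Y mice. The 4 V338Y mice thus lay on either side of the wild-type mice, with a log2 fold change of 0.48 (95% interval -0.63 to 1.6) at 19 mo, which was 0.0379 without V338Y mouse 5, 0.31 without wild-type mouse 2 and 0.18 with the mouse number as a block. At 3 mo its log2 fold change was 0.20 (95% interval -0.38 to 0.78), with 2.91 to 4.46 CPM in wild-type and 2.19 to 5.68 CPM in V338Y mice.

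Trib3, a pseudokinase that restrains the response downstream of CHOP (chr2:152337422-152344032, minus strand), rested on few counts. It was at 0.496 to 1.18 CPM in wild-type and 0.230 to 1.16 CPM in V338Y mice at 3 mo, with a log2 fold change of -0.08 (95% interval -1.02 to 0.85). At 19 mo it was at 0.621, 1.26 and 1.65 CPM in wild-type and 1.70, 0.737, 2.71 and 1.73 CPM in V338Y mice, with a log2 fold change of 0.57 (95% interval -0.55 to 1.69). The V338Y mice other than mouse 3 were above all wild-type mice at 19 mo.

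The mitokines were barely detected. Fgf21 (chr7:45613886-45615490, minus strand) gave 0, 0, 1 and 0 counts in wild-type and 2, 0, 0 and 0 counts in V338Y mice at 3 mo, and 2, 4 and 1 counts in wild-type and 2, 1, 4 and 1 counts in V338Y mice at 19 mo. Gdf15 (chr8:70629393-70632456, minus strand) gave 0, 0, 0 and 1 counts in wild-type and 2, 0, 1 and 0 counts in V338Y mice at 3 mo, and 0, 1 and 0 counts in wild-type and 0, 2, 2 and 0 counts in V338Y mice at 19 mo. A library with 0 counts allowed a level of up to 0.183 to 0.364 CPM, depending on its depth (3 counts, counting error only). Exact two-sided permutation tests of CPM gave p = 1 and p = 0.914 for Fgf21 between genotypes at 3 and 19 mo, and p = 0.714 and p = 0.571 for Gdf15, where the smallest p possible was 0.0286 for 4 against 4 mice and 0.0571 for 4 against 3. With age, Fgf21 gave p = 0.0571 in wild type, the smallest possible there, and 0.0857 in V338Y by the same exact permutation test (adjusted p = 0.343 for each over the 8 tests), with 7 of 7 aged mice holding at least 1 count against 2 of 8 young mice. With no more than 4 counts in any mouse, a difference between genotypes in either mitokine transcript could not be resolved at this depth, and the protein in blood was not analysed here.

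**Figure D2:**
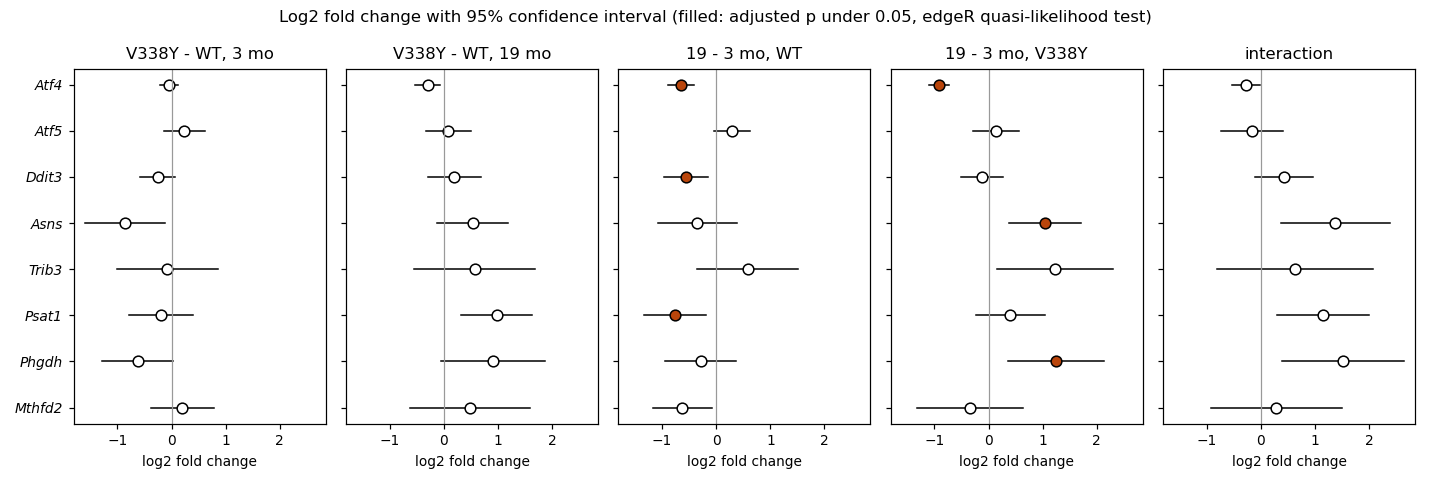
Log2 fold change (x axis) with its 95% confidence interval (lines) for the 8 tested genes (y axis) in the 5 comparisons, filled where the adjusted p passed 0.05. Filled points occurred for Atf4, Ddit3 and Psat1 with age in wild type (all lower) and for Atf4 (lower), Asns and Phgdh (higher) with age in V338Y, and nowhere in the genotype comparisons or the interaction as fitted without a block.

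Between 3 and 19 mo, Atf4 fell in each genotype while the enzyme transcripts took different courses. In wild type 3 members fell and 0 rose, where 17.8% of 13657 genes fell and 18.3% rose. Atf4 changed by a log2 fold of -0.65 (SE 0.10, adjusted p = 0.00204), Psat1 by -0.76 (SE 0.25, adjusted p = 0.0431) and Ddit3 by -0.56 (SE 0.18, adjusted p = 0.0396), and the 19 mo mice were below all 3 mo mice for each. Mthfd2 also lay lower in every 19 mo wild-type mouse (log2 fold change -0.63) but missed the threshold (adjusted p = 0.0685). How many of all genes tested separated in this way was not counted for wild type or V338Y with age. The call of Ddit3 was lost without wild-type 3 mo mouse 2, 3 or 4 or 19 mo mouse 2 or 4 (adjusted p 0.0532 to 0.105). The call of Psat1 was lost without 3 mo mouse 1, 2 or 4 or 19 mo mouse 2 or 4 (adjusted p 0.0583 to 0.120), and with DESeq2 (adjusted p = 0.0580).

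In V338Y mice 2 members rose and 1 fell with age, where 24.4% of 13868 genes rose and 22.5% fell. The mean of Asns was 2.33 CPM (SD 0.802) in the 4 young mice and 4.85 CPM (SD 1.51) in the 4 aged mice, a rise by a log2 fold change of 1.04 (SE 0.30, adjusted p = 0.0181). Phgdh went from 1.602 CPM (SD 0.468) to 3.90 CPM (SD 2.27), a rise by 1.25 on the log2 scale (SE 0.40, adjusted p = 0.0270). Atf4 went the other way, from 160.8 CPM (SD 5.32) to 84.7 CPM (SD 5.04), with a log2 fold change of -0.91 (SE 0.08, adjusted p = 7.63e-05). For Asns and Phgdh the 3 mo and 19 mo mice overlapped, for Atf4 they did not. The 10 myofibre markers moved beside Atf4: their sum had a median of 137100 CPM at 3 mo and 109700 CPM at 19 mo in wild type, and 152200 and 89070 CPM in V338Y, with 3 and 5 of the 10 called lower and 1 and 0 called higher. Within groups, the myofibre sum and Atf4 were at r = -0.187 over the 15 mice. Over the 8 mice of 3 mo r was 0.330, and over the 7 of 19 mo it was -0.431. The part of the myofibre markers in the age results was not tested.

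These age calls in V338Y differed in how far they leaned on single mice. That of Atf4 held in all 8 fits that left out 1 mouse. That of Asns was lost without 3 mo mouse 2 or 3 (adjusted p 0.0517 and 0.0540), and that of Phgdh without 3 mo mouse 2, 3 or 4 or 19 mo mouse 4, whose omission gave a log2 fold change of 0.78 in place of 1.25 (adjusted p = 0.0596). Trib3 was just short of the threshold (log2 fold change 1.23, adjusted p = 0.0582) and passed it without 3 mo mouse 3 (adjusted p = 0.0467) or without 19 mo mouse 3 (adjusted p = 0.0184). The 19 mo mice of each genotype differed from the 3 mo mice in sex as well as in age.

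Whether the change with age differed between genotypes was tested in 1 fit of all 15 mice. Of the 8 members, 0 passed the adjusted threshold, as did 0% of 14128 genes. At an unadjusted p under 0.05 there were 4 members, against 9.59% of all genes tested (1355 genes): the change was greater in V338Y by a log2 value of 1.38 for Asns (95% interval 0.37 to 2.38, adjusted p = 0.430), 1.15 for Psat1 (0.30 to 1.999, adjusted p = 0.431) and 1.51 for Phgdh (0.39 to 2.64, adjusted p = 0.435), while the log2 value for Atf4, which fell with age in each genotype, was -0.28 (-0.54 to -0.02, adjusted p = 0.498). The direction for Asns, Psat1 and Phgdh combines a lower V338Y level at 3 mo with a higher one at 19 mo. Over the 8 members the median was 0.53, beside -0.014 over all genes tested, and it was 0.31 without wild-type 19 mo mouse 2. With the mouse number as a block, the fit of the interaction called 28 genes and 1 member, Asns (log2 value 1.49, adjusted p = 0.0414). By median r, same-numbered mice were not more alike than others at 3 mo, and the check does not settle whether the numbers pair mice at 19 mo.

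Asns, Psat1, Phgdh and Trib3 moved together from mouse to mouse, and with the transcripts that mark fat cells. The levels of 9 adipocyte markers (Adipoq, Plin1, Cidec, Lep, Fabp4, Retn, Cfd, Pparg and Lipe) summed to 239.6, 348.9 and 526.8 CPM in aged wild-type mice 2, 4 and 5, and to 829.7, 284.4, 1468 and 658.6 CPM in aged V338Y mice 2 to 5. V338Y mouse 3, with the fewest adipocyte transcripts of its group, also had the lowest Asns, Psat1, Phgdh and Trib3 of its group, and mouse 4, with the most, had the highest Phgdh and Trib3. At 3 mo the marker sum was 1606, 417.9, 563.4 and 913.4 CPM in wild-type and 827.0, 324.3, 461.4 and 329.7 CPM in V338Y mice, and mouse 1 of each group, the highest in this sum, was also the highest of its group for Asns, Psat1 and Phgdh. In the genotype comparisons 0 of the 9 markers had a higher fitted level in V338Y at 3 mo and 9 of 9 did at 19 mo. At each age 0 were called, beside 0.075% and 0.0434% of all genes tested. With age 4 of the 9 rose in V338Y, beside 24.4% of all genes, and 2 of the 9 fell in wild type, beside 17.8%.

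Over the 15 mice, as deviations of log2 CPM from the group means, the adipocyte sum correlated with Phgdh at r = 0.861 (rho = 0.771, permutation p = 0.00177 and 0.00606), with Asns at r = 0.850 (rho = 0.807, permutation p = 0.00192 and 0.00295), with Psat1 at r = 0.822 (rho = 0.732, permutation p = 0.00251 and 0.00988) and with Trib3 at r = 0.813 (rho = 0.814, permutation p = 0.00231 and 0.00252). Without the 2 mice farthest out in the marker sum the r values were 0.793, 0.841, 0.778 and 0.688, and within an age they were 0.6251 to 0.934 at 3 mo and 0.770 to 0.970 at 19 mo. These were among 64 relations of 8 members with 8 cell type lists. Adjusted over the 64, the permutation p of Pearson's r was 0.0402 for each of the 4 and that of Spearman's rho 0.0944 to 0.128, and no other relation had an adjusted p under 0.05 by either measure. Atf4 (r = -0.132), Ddit3 (r = -0.0748) and Mthfd2 (r = 0.0248) had r values near 0 over the 15 mice. For Mthfd2 this joined r = 0.785 over the 8 mice of 3 mo with r = -0.444 over the 7 of 19 mo. Atf5 was at r = 0.319 (rho = 0.143, permutation p = 0.270 and 0.639), with r = 0.707 over the 8 mice of 3 mo and -0.112 over the 7 of 19 mo. The part of adipocyte RNA in the results for Asns, Psat1, Phgdh and Trib3 was not tested. In a bulk sample, more cells of a type and more RNA per cell cannot be told apart.

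**Figure D3:**
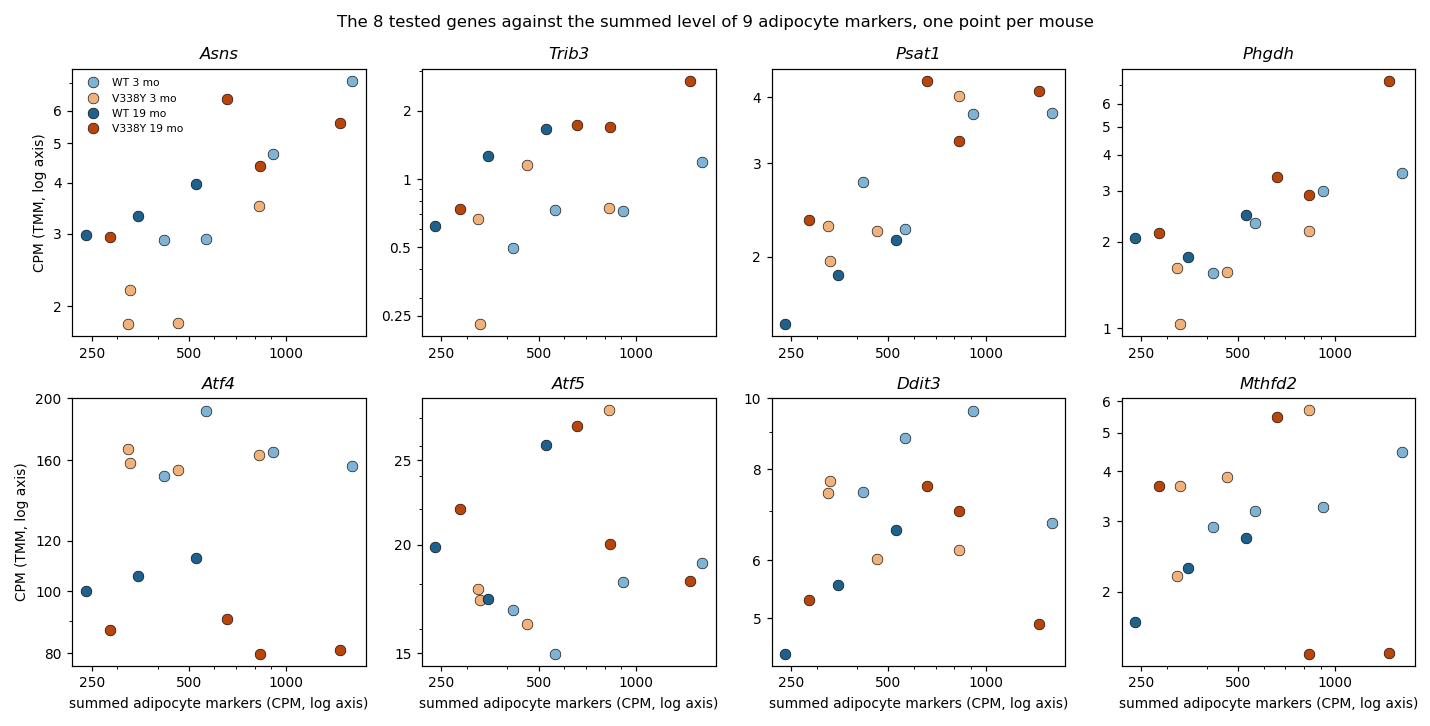
CPM of each of the 8 tested genes (y axis, log) against the summed CPM of 9 adipocyte markers (x axis, log), 1 point per mouse, coloured by group. Asns, Trib3, Psat1 and Phgdh were high in the mice with many adipocyte transcripts (r = 0.850, 0.813, 0.822 and 0.861 within groups), and Atf4 was not (r = -0.132).

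Marker sums of some other cell types also differed between the 19 mo groups. The 9 macrophage markers summed to 315.3 to 368.1 CPM in aged wild-type and 388.9 to 468.0 CPM in aged V338Y mice, without overlap. Psat1 separated the same groups. Within groups, Psat1 and the macrophage sum were at r = 0.567 over the 15 mice (permutation test, adjusted p = 0.326). This joined r = 0.820 over the 8 mice of 3 mo with r = -0.182 over the 7 of 19 mo. The 8 neutrophil markers summed to 2.88 to 5.70 CPM in wild-type and 3.80 to 588.8 CPM in V338Y mice, and V338Y mouse 5, the highest, was also the mouse with the most Mthfd2 (5.46 CPM), Asns and Psat1 transcripts of its group. Within groups over the 15 mice, the neutrophil sum was at r = 0.712 with Mthfd2 (permutation test, adjusted p = 0.245), 0.0941 with Asns and 0.165 with Psat1. The 5 erythroid markers summed to 97.1 to 150.8 CPM in wild-type and 158.4 to 782.7 CPM in V338Y mice. The sums of the fibroblast, endothelial and nerve markers overlapped between the 19 mo groups. None of these lists had a member called between genotypes. Their part in the member results was not tested.

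The surrounding pathway was examined through 5 lists. Between genotypes at 3 mo, at 19 mo and in the interaction, 0 genes were called in each of the lists. Among the lists were 16 genes of the eIF2 list (eIF2 kinases, phosphatase subunits, eIF2 and eIF2B subunits, with Oma1 and Dele1) and the 21 tested of 22 other ATF4 and CHOP targets. The median log2 fold change of those other targets was -0.10 at 3 mo and -0.0086 at 19 mo. The 19 cytosolic aminoacyl-tRNA synthetase and tRNA export genes, which ATF4 also serves, had medians of 0.013 and -0.083, and the serine, glycine and folate enzymes other than the members -0.034 and -0.12. The median of the 6 tested receptor genes of FGF21 and GDF15 was -0.05 at 3 mo and 0.32 at 19 mo, with 5 of the 6 fitted higher in V338Y at 19 mo. The list gene with the lowest adjusted p between genotypes was Slc1a5, a glutamine transporter singled out after its values were seen, with a log2 fold change of -0.97 at 3 mo (adjusted p = 0.190) and 0.78 at 19 mo (adjusted p = 0.541).

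With age, more genes of the tRNA synthetase and eIF2 lists fell than rose in each genotype. Of the 19 synthetase and export genes 9 fell and 2 rose in wild type, and 13 fell and 1 rose in V338Y, beside 17.8% and 22.5% of all genes falling. The seryl-, asparaginyl- and tyrosyl-tRNA synthetases fell in V338Y (Sars log2 fold change -0.71, Nars -0.64, Yars -0.67, adjusted p 0.000256 to 0.000657), and Sars (-0.57) and Nars (-0.52) fell in wild type while Vars (0.63) rose. Of the 16 genes of the eIF2 list 6 fell and 3 rose in wild type and 9 fell and 1 rose in V338Y. Oma1 (-0.38) and Dele1 (-0.32), which are neither eIF2 kinases nor subunits of eIF2 or eIF2B, were among the 9. The lowest adjusted p values belonged to the eIF2B subunits Eif2b4 (-0.76), Eif2b3 (-0.57) and Eif2b5 (-0.42) in wild type, and to Eif2s1 (-0.57), the subunit that the kinases phosphorylate, Eif2b1 (-0.67) and Eif2b4 (-0.61) in V338Y.

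The other targets of ATF4 and CHOP went both ways with age, and in wild type the part that rose was near the share of all genes. Of the 21 tested, 4 rose and 2 fell in wild type, where 18.3% of all genes rose and 17.8% fell, and 7 rose and 2 fell in V338Y, where 24.4% rose and 22.5% fell. Stc2, a secreted glycoprotein of the stress response, rose in each genotype (log2 fold change 1.49 in wild type and 1.75 in V338Y), Slc6a9, a glycine transporter, rose in each (0.70 and 0.74), and Slc1a5 rose in V338Y (1.39), while Vldlr, a lipoprotein receptor, fell in each (-0.66 and -1.19). Of the serine and one-carbon enzymes 2 rose and 3 fell in wild type (17 tested) and 3 rose and 3 fell in V338Y (18 tested), beside the same shares of all genes. Mat2a, which makes S-adenosylmethionine, fell by 0.86 in wild type and by 0.64 in V338Y on the log2 scale, Gcsh of the glycine cleavage system by 0.58 and by 0.67, and Aldh1l2, a mitochondrial folate enzyme, by 0.73 and by 1.06.

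Among the receptors of the mitokines, 1 of 6 tested fell in wild type, beside 17.8% of all genes, and 3 of 6 rose in V338Y, beside 24.4% of all genes. Ret, the signalling partner of the GDF15 receptor, fell by 1.03 on the log2 scale in wild type. In V338Y, Klb, the co-receptor that FGF21 needs, had means of 0.780 CPM (SD 0.583) in young and 6.88 CPM (SD 4.07) in aged mice, a rise with a log2 fold change of 3.09 (SE 0.60, adjusted p = 0.00262), Fgfr1 rose by 0.49 and Fgfr2 by 1.31. Klb is also a transcript of fat cells, and 4 of the 9 adipocyte markers rose in the same comparison, beside the same 24.4% of all genes. The part of adipocyte RNA in the result for Klb was not tested. Gfral, the receptor of GDF15, had 0 counts in all 4 groups.

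**Figure D4:**
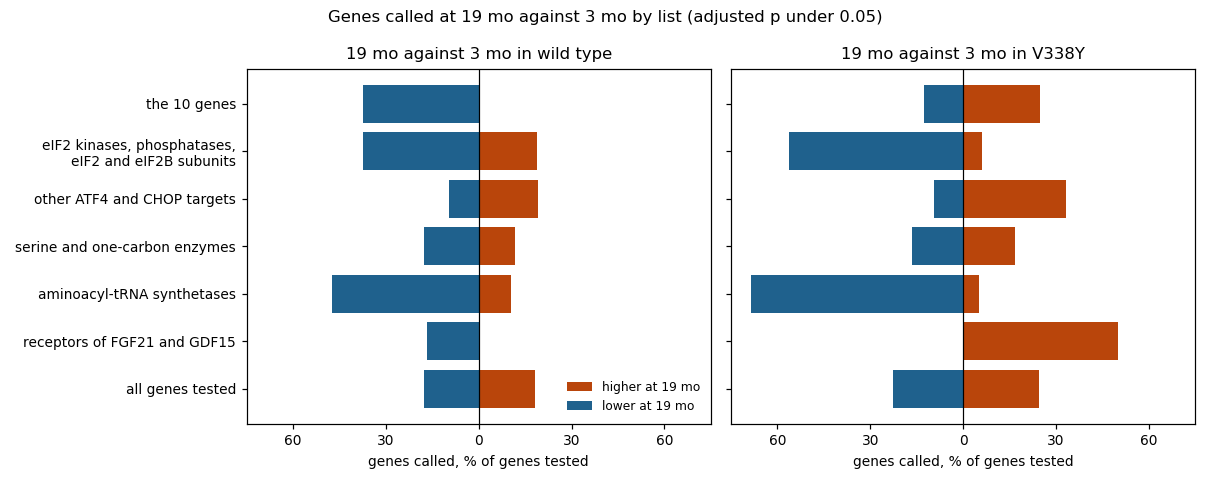
Share of tested genes called with age (x axis, % of genes tested, higher to the right and lower to the left) for the 10 genes, the 5 surrounding lists and all genes tested, in wild type (left) and V338Y (right). The aminoacyl-tRNA synthetases leaned to the lower side (9 of 19 in wild type and 13 of 19 in V338Y), beside 17.8% and 22.5% of all genes.

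The genes whose level followed each member most closely differed between members. Within groups over the 15 mice (Pearson's r of log2 CPM, a description with no test, and the mice share libraries across genes), Asns was most like Prkar2b (r = 0.936), Abhd15 (0.933) and Hacd2 (0.925), Trib3 most like Ltbp2 (0.881), Cyp4b1 (0.879) and Lipe (0.874), and Phgdh most like Ormdl3 (0.933), Ltbp2 (0.910) and Fgfrl1 (0.910). Psat1 was most like Wdfy4 (0.936), Inpp5d (0.913) and Tnfrsf1a (0.9003). Atf4 was most like Fiz1 (0.905), Fam220a (0.871) and Eif3d (0.869), Atf5 most like Lbh (0.938), Ppard (0.912) and Bag3 (0.897), Ddit3 most like Tmem204 (0.908), Slc28a2 (0.899) and Ifi30 (0.872), and Mthfd2 most like Rnf217 (0.874), Trp53inp2 (0.874) and Poln (0.868). Among the members themselves the pair Asns and Psat1 was the most alike (r = 0.884), followed by Trib3 and Phgdh (0.754), and Atf4 and Atf5 were at 0.224. Atf5 was at 0.684 with Mthfd2, 0.660 with Psat1 and 0.595 with Asns, beside 0.542 for Asns with Trib3. With Ddit3, Phgdh and Trib3, Atf5 was at 0.1845, 0.185 and 0.0686.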

How the data were processed

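Quadriceps RNA from 15 mice was sequenced by the authors with a stranded Illumina mRNA protocol, and the deposited values are expected counts per Ensembl gene made by the authors with RSEM, already whole numbers (per the labels, STAR 2.4.2a and GRCm38 were used, while the methods write GRCm37). The 15 files were joined by gene identifier, and no 2 files were identical. CPM used TMM factors over all mice. Comparisons used edgeR 4.0.16 (quasi-likelihood test) on genes that reached 10 counts in 50% or more of a compared group's mice, with Benjamini-Hochberg adjustment over all genes tested and a threshold of 0.05. Code was tested on simulated data. The labels name no batch. At 19 mo the deviations of same-numbered mice of both genotypes correlated at r = 0.132 to 0.400 (median 0.239, 3 pairs). For the 9 other pairs r was -0.407 to 0.467 (median -0.0801). The 3 values lay inside the range of the others, so the check does not show that the numbers pair mice. The block is given there as an alternative. The 10 genes and all lists were chosen with earlier results of these data known. Named genes were all 10 members, up to 3 called genes per list and age comparison with the lowest adjusted p, and the 3 most alike genes of each member. Oma1 and Dele1 are named in addition to describe their list, and Chac1 is named after its values were seen. One list gene that the rule names is not reported here. Alternatives were DESeq2 1.42.0, a likelihood ratio test, other scalings and filters, the block, a fit of all mice and leaving out each mouse. Correlations with marker sums used log2(CPM + 0.5) and 100000 permutations within groups, and were added after the data were seen.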

Additional observations from a re-analysis of the deposited data

Results flagged for a closer look

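In 30 groups of 4 mice, 5 member values lay so far from the other 3 that the gap exceeded Dixon's 95% critical share of the group's range. For continuous, normally spread values, chance alone gives this in about 1 of 20 groups. At 3 mo, V338Y mouse 1 had 28.5 CPM of Atf5, with a gap of 0.870 of the range, and 4.02 CPM of Psat1, with a gap of 0.841. The same mouse held the highest adipocyte marker sum of its group (827.0 CPM). The others rest on 1 or 2 counts in a group otherwise at 0: Fgf21 at 0.0663 CPM in wild-type mouse 3 and 0.115 CPM in V338Y mouse 1, and Gdf15 at 0.0906 CPM in wild-type mouse 4, all at 3 mo. With the other mice at 0 the gap is the whole range whatever the count, so the rate of 1 in 20 does not hold for these.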

How the results depend on the processing

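Among the refitted member fold changes, 636 kept their direction and side of the threshold, 10 turned direction, 6 newly passed and 19 no longer passed. Between genotypes no setting called a member. All genes called numbered 10 at 3 mo (DESeq2 66, likelihood ratio test 83, no filter 33, leaving out 1 mouse 3 to 14), 6 at 19 mo (DESeq2 62, likelihood ratio test 72, no filter 14, mouse number as a block 110, leaving out 1 mouse 2 to 7) and 0 in the interaction (DESeq2 26, likelihood ratio test 36, no filter 5, block 28). The block also called 1 member in the interaction, Asns (log2 1.49, adjusted p = 0.0414), and gave 2229 genes in place of 4940 with age in wild type. By median r, same-numbered mice were not more alike than others there, nor at 3 mo or with age in V338Y. Members called with age ranged from 1 to 3 in wild type and 1 to 4 in V338Y when 1 mouse was left out, and Psat1 in wild type also missed the threshold with DESeq2 (adjusted p = 0.0580), the block (0.0790) and the fit of all 15 mice (0.0583). Trib3 with age in V338Y passed it with DESeq2 (0.0473), the likelihood ratio test (0.0302) and that fit (0.0364). Small fold changes turned sign when 1 mouse was left out: at 3 mo Trib3 (-0.39 to 0.17), Atf4 (-0.0869 to 0.0290), Atf5 (-0.0040 to 0.33) and Mthfd2 (-0.0730 to 0.386), at 19 mo Atf5 (-0.0384 to 0.266), and in the interaction Atf5 (-0.283 to 0.081) and Mthfd2 (-0.15 to 0.56). Without a filter the median of all genes with age in V338Y moved to 0.25. The cause of these changes was not tested. With 3 or 4 mice a group and 2 to 27 counts of Trib3 per mouse, changes smaller than the intervals given could not be resolved, and no statement on Fgf21 or Gdf15 beyond their detection limit is possible.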
